A study of Mus musculus with 24 samples.

Results

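The heart and the stomach of Trex1-deficient mice were compared by RNA-Seq, using the 6 control samples of the series, 3 of heart and 3 of stomach, out of 24 samples in all. The samples were chosen by their titles and tissue labels, not by any measured value. Every mouse in the series carried the Trex1 knockout (Trex1-/-, given as Trex1-KO in the labels). The methods give a C57BL/6J background and an age of 1 month when injections began. The control mice received vehicle by intraperitoneal injection according to the methods, whereas the labels call them untreated. The organ difference was repeated in 6 further samples, 3 of heart and 3 of stomach, from Trex1-/- mice given SN-011, a compound that blocks STING. The labels give SN-011 at 5 mg/kg, 3 times per week for 4 weeks, and the methods give another schedule. No sample of a mouse with intact Trex1 was analysed here, so the ordinary difference between the 2 organs and any difference tied to Trex1 loss cannot be told apart. Nothing in the labels says whether samples with the same number came from 1 mouse, and p-values therefore measure the spread between these samples.

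Trex1 is a DNA exonuclease that removes DNA from the cytosol. When it is missing, the DNA accumulates, cGAS makes the messenger cGAMP, and cGAMP switches on STING, which drives type I interferon and the inflammatory disease of these mice. Secreted type I interferon binds the receptor made of Ifnar1 and Ifnar2 on neighbouring cells and acts through a complex holding Stat2 and Irf9 on a DNA element called the ISRE. Type III interferon uses Ifnlr1, a receptor known mainly from epithelium, and interferon gamma from T and NK cells acts on an element called GAS. The stomach is lined with epithelium and has a resident IgA system, whereas the heart has no mucosal epithelium and is rich in capillaries.

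Samples held 14392199 to 17337989 counts in total. Levels are given as CPM, the count scaled by library size, and 3 counts, the smallest amount treated as shown, were worth 0.153 to 0.231 CPM, a floor that covers counting error only. The labels fitted the defining markers. All 9 cardiomyocyte markers were higher in heart, where their summed level was 36583 to 52502 CPM against 134 to 277 CPM in stomach. The 20 markers of gastric glands and surface mucous cells summed to 46504 to 149115 CPM in stomach. They were not absent from the heart samples, where they summed to 86.2, 3244 and 352 CPM in replicates 1, 2 and 3, and heart replicate 2 thus held 3.57% of the mean stomach level. Lipf, a chief cell marker, was listed at 0 in all 6 samples. Heart replicate 3 had a summed level of 456.5 CPM for the 8 B cell markers, against 60.3 and 33.0 CPM in the other hearts. Replicate 1 of both organs was the 1 sample with high Xist (7028 counts in heart and 7843 in stomach, against at most 18 elsewhere), so that the sexes were balanced between the organs.

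Of 16961 genes that passed the filter on low counts, 3566 (21%) were higher in heart and 3484 (20.5%) were higher in stomach, at a Benjamini-Hochberg adjusted p under 0.05 in the quasi-likelihood test of edgeR. All fold changes below are log2 values of heart minus stomach, so that a negative value means more in stomach, and each adjusted p comes from this test. The median over all genes tested was 0.01. The genes with the largest differences were organ genes. Myh6, the cardiac myosin heavy chain, was 12193 to 18551 CPM in heart and at most 0.460 CPM in stomach. Lrrc10, a cardiac protein, and Nppb, a natriuretic peptide, had no count in stomach and were at least 2024-fold and 1604-fold higher in heart, measured against 3 counts per library. Krt5 and Krtdap of squamous epithelium and Grp, gastrin-releasing peptide, had no count in heart and were at least 274-fold, 246-fold and 143-fold higher in stomach.

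The interferon and immune genes were not evenly split between the organs. The interferon lists together held 138 genes, of which 115 were tested, and 49 (42.6%) were higher in heart against 11 (9.57%) in stomach, with a median of 0.58. The other lists held 181 immune genes, of which 159 were tested, and 75 (47.2%) were higher in heart against 28 (17.6%) in stomach, with a median of 0.95. M7core is a gene set that the study derived from fibroblasts stimulated through cGAS and from targets of the transcription factor IRF2. The study picked its parent module because that module rose most in macrophages and hearts of Trex1-/- mice. M7core was thus not chosen independently of the heart. Of its 157 tested genes, 55 (35.0%) were higher in heart and 19 (12.1%) in stomach, with a median of 0.39. The excess on the heart side stood against 21% of all genes. The interferon and immune lists were chosen with earlier results of these data known, so their shares describe these samples and are not independent support. Lists differed widely, from the list of interferon-inducible GTPases, nearly all higher in heart, to the mucosal defence genes, most of them higher in stomach. The Mx GTPases were not in the GTPase list but among the antiviral effectors. Against a 2-fold difference in glmTreat, edgeR's test of a minimum fold, 28 and 5 interferon genes and 45 and 21 immune genes were called in heart and stomach, where 11.2% and 10.7% of all genes were called. In bulk tissue, fewer cells of a type and less RNA per cell cannot be told apart.

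**Figure D1:**
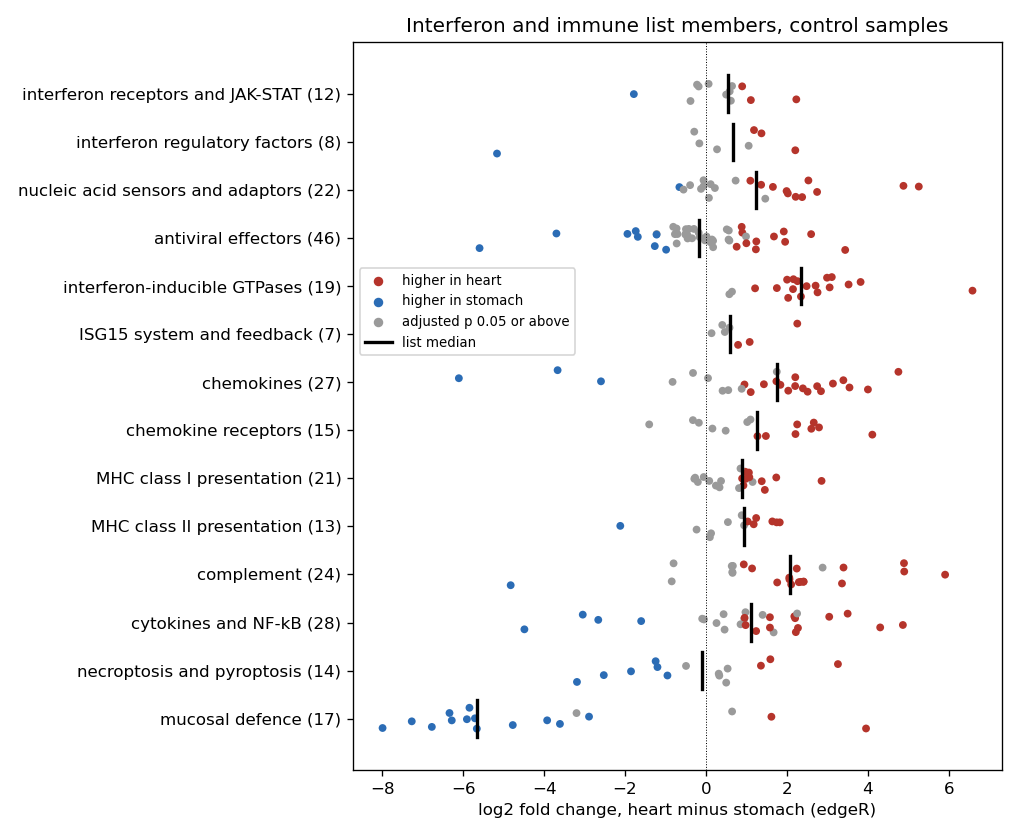
Each point is 1 tested gene of an interferon or immune list, placed by its log2 fold change of heart minus stomach (x axis) in the control samples, with the number tested in parentheses and the list median as a black bar. All 19 GTPases lie right of 0 (median 2.35), most mucosal defence genes lie left of it (median -5.66), and the antiviral effectors spread on both sides (median -0.17).

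**Figure D2:**
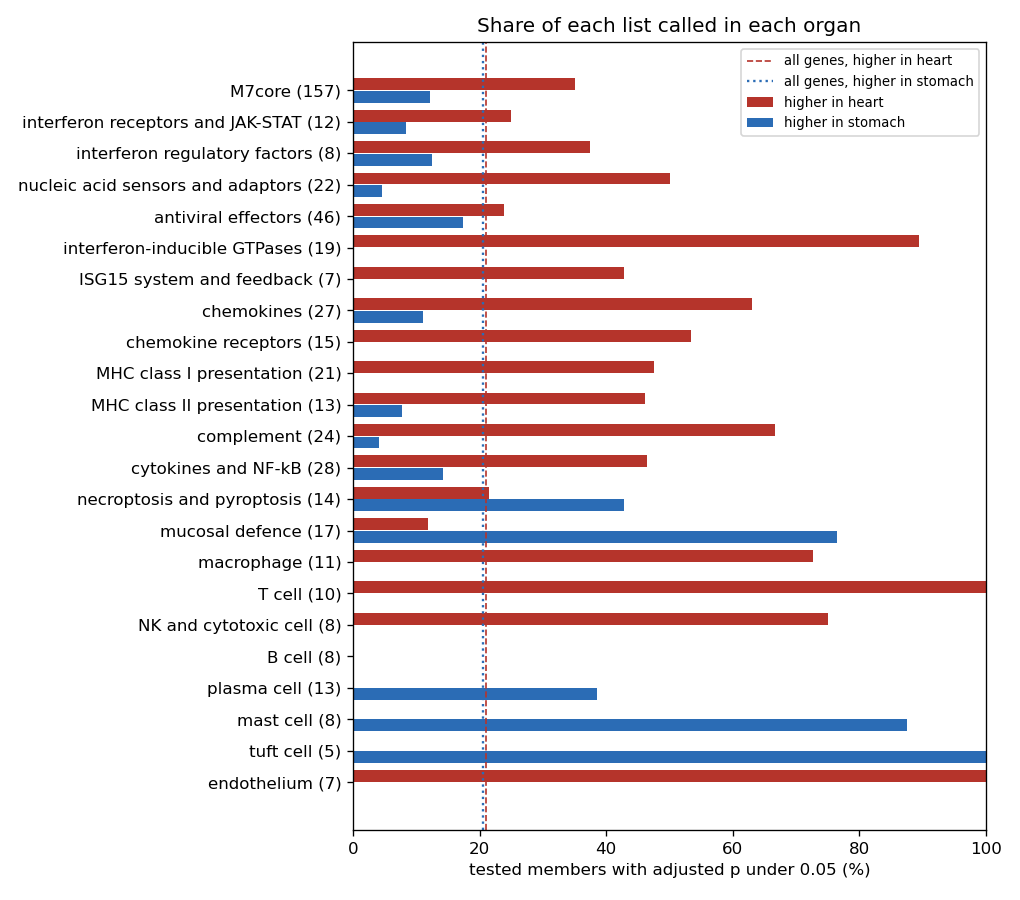
Bars give the percent of tested members of each list that were higher in heart or in stomach at an adjusted p under 0.05, and the vertical lines give the same percent for all genes (21% and 20.5%). The GTPase, T cell and endothelium lists reach 89.5%, 100% and 100% on the heart side, and the tuft cell list reaches 100% on the stomach side.

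The promoters of 5 genes are shown because their genes sit on opposite sides of the comparison although they carry the same interferon element. Each is given 5′ to 3′ on the strand of its gene, from 250 bases before to 50 bases after the RefSeq start (GRCm38.p6), with every match to the ISRE core (GAAA, any 2 bases, then GAAA) on either strand in capitals. Ifit3 and Ifit1bl1 are neighbours whose starts lie 18.4 kb apart in the Ifit cluster of chromosome 19, Igtp is an immunity-related GTPase, Oas1g makes the second messenger that switches on RNase L, and Cxcl10 encodes a chemokine for activated T cells.
Ifit3 (higher in heart), chr19:34583279-34583578, plus strand: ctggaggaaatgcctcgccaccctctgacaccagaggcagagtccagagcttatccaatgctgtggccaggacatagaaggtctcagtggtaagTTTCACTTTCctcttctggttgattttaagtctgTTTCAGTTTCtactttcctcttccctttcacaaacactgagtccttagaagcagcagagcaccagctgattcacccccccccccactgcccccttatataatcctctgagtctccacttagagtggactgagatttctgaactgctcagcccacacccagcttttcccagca
Ifit1bl1 (higher in stomach), chr19:34601919-34602218, minus strand: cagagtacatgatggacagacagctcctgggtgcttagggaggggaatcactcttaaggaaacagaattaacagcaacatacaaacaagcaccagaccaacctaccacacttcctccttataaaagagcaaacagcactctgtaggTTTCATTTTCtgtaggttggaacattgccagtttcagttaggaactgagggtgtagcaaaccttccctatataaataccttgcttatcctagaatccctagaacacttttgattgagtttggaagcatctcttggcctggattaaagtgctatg
Igtp (higher in heart), chr11:58199306-58199605, plus strand: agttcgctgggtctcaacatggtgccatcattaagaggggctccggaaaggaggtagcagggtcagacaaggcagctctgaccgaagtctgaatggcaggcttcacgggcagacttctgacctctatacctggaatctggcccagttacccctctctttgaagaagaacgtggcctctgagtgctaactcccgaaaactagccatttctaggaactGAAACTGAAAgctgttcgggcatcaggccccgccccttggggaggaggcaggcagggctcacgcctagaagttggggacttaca
Oas1g (higher in stomach), chr5:120887564-120887863, minus strand: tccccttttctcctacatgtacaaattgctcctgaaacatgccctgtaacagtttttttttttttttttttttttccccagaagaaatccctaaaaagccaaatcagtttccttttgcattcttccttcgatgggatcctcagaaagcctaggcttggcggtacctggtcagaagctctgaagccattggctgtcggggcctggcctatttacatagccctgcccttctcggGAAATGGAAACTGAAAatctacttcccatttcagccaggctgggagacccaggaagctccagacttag
Cxcl10 (higher in heart), chr5:92348840-92349139, minus strand: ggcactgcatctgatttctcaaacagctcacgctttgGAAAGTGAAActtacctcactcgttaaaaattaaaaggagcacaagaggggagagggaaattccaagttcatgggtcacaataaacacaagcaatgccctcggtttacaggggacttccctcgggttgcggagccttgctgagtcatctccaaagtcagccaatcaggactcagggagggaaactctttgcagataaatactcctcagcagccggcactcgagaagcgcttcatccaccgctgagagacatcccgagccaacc

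The ISRE match of Ifit1bl1 began 104 bases before the start, those of Ifit3 156 and 122 bases before it, and the overlapping pair of Oas1g 18 and 12 bases before it. In Igtp the match began 34 bases before the start, and a match to the GAS core TTCNNNGAA began 45 bases before it. Over the 27025 genes with a promoter in the RefSeq table, 3.99% held the ISRE core and 9.55% the GAS core. Of the interferon genes higher in heart, 35 of 49 had a promoter in the table, and 20 of them (57.1%) held the ISRE core and 13 (37.1%) the GAS core. Of those higher in stomach, 6 of 11 had a promoter, with 2 and 0 matches. Of the interferon genes tested and not called, 44 of 55 had a promoter, and 17 (38.6%) held the ISRE core and 9 (20.5%) the GAS core. Of the 11 GTPases with a promoter, 10 held the ISRE core and 6 the GAS core, and of the 34 antiviral effectors with one, 18 and 7 did. These letters mark a description of the window and not a bound factor.

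Receptors and signal carriers of interferon differed by type. Ifnar2 was 44.8, 41.7 and 53.4 CPM in heart and 8.01, 8.69 and 13 CPM in stomach (log2 fold change 2.23, SE 0.26, adjusted p = 0.00062). Ifnar1 was 54.0, 52.0 and 69.2 CPM in heart and 18.3, 28.3 and 34.5 CPM in stomach (1.11, SE 0.27, adjusted p = 0.0132), and without heart replicate 3 its adjusted p was 0.0524. For both chains of the type I receptor the lowest heart lay above the highest stomach. Ifnlr1, the type III receptor chain, went the other way, with 5.07, 10.4 and 8.82 CPM in heart and 21.2, 26.9 and 35.3 CPM in stomach (-1.78, SE 0.34, adjusted p = 0.00467). Of the 12 genes of this list, 3 were higher in heart and 1 in stomach, and the other 8 did not pass, among them Stat2 (-0.18) and Irf9 (0.07). The number higher in heart was 1 without heart replicate 3 and 5 without stomach replicate 3.

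The ligands themselves were barely seen. Of 20 interferon genes only Ifng, interferon gamma, was tested, with 2.31, 1.51 and 3.98 CPM in heart and 0.539, 0.298 and 0.511 CPM in stomach (2.52, SE 0.60, adjusted p = 0.0115), and it did not pass without heart replicate 3. The 20 ligands together summed to at most 4.19 CPM in any sample.

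Among the interferon regulatory factors, Irf7, the factor that amplifies type I interferon, was 1397, 1278 and 1355 CPM in heart and 577, 538 and 442 CPM in stomach (1.37, SE 0.29, adjusted p = 0.00749). Irf5, a factor of myeloid cells, was 47.2 to 76.2 CPM in heart and 8.55 to 20 CPM in stomach (2.21), and Irf8, of myeloid and B cells, was 66.0 to 129 CPM and 34.0 to 49.1 CPM (1.19, adjusted p = 0.0132). Irf7 overlaps Phrf1 and Irf5 overlaps Tnpo3 on the other strand. Whether the counting used strand is not given in the sources used here.

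Sensors of DNA and RNA start the interferon response inside the cell. Of the 22 sensor and adaptor genes, 11 (50%) were higher in heart and 1 in stomach, with a median of 1.23. Sting1 (listed as Tmem173), the adaptor of the cGAS pathway, was 44.1, 30.4 and 54.1 CPM in heart and 6.85, 9.58 and 11.1 CPM in stomach (2.22, SE 0.30, adjusted p = 0.0011). Cgas was low in both organs, at 6.47, 3.03 and 7.62 CPM in heart and 1.00, 4.29 and 4.96 CPM in stomach, and its groups overlapped (0.73, SE 0.63, adjusted p = 0.386). Trex1 had no count in any sample, and since the same-strand gene Atrip overlaps it, the counts do not show the genotype. Zbp1, a sensor of Z-form nucleic acid that can start cell death, was 251, 184 and 291 CPM in heart and 108, 143 and 89.2 CPM in stomach (1.10, SE 0.28, adjusted p = 0.0166). The adjusted p of Zbp1 was 0.0554 without heart replicate 1 and 0.067 without heart replicate 3.

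In the PYHIN family of DNA-binding interferon-inducible proteins, 5 of 6 tested genes were higher in heart, and 3 were without stomach replicate 2 or without heart replicate 3. Ifi211 was 39.4 to 61.5 CPM in heart and 6.29 to 8.78 CPM in stomach (2.75, SE 0.26, adjusted p = 0.000273). The endosomal receptors and their chaperone Unc93b1 followed the same side in 4 of 5 genes. Tlr9, which reads DNA, was 18.7, 10 and 23.4 CPM in heart and 0, 1.07 and 0.614 CPM in stomach (4.88, adjusted p = 0.00305), and Tlr8, which reads RNA, was 2.67 to 8.16 CPM in heart and at most 0.417 CPM in stomach (5.26). Among the RIG-I-like receptors of cytosolic RNA and their adaptor Mavs, none of 4 genes was higher in heart. Ifih1 was 97.3 to 121 CPM in heart and 107 to 129 CPM in stomach (-0.12, adjusted p = 0.666), and Ddx58 was 109 to 143 CPM and 88.0 to 130.1 CPM (0.07, adjusted p = 0.832). Dhx58, their regulator, was 98.4 to 112 CPM in stomach and 55.8 to 76.0 CPM in heart (-0.66, SE 0.20, adjusted p = 0.0344), and its adjusted p was 0.0651 to 0.149 without any 1 heart sample and 0.121 without stomach replicate 2.

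Antiviral effectors were the list that split most evenly. Of 46 tested, 11 (23.9%) were higher in heart and 8 (17.4%) in stomach, close to the 21% and 20.5% of all genes, with a median of -0.17. The Ifit genes, RNA-binding proteins that block viral translation, went both ways within 1 cluster of 99.3 kb. Ifit2 was 323, 319 and 402 CPM in heart and 18.8, 32.3 and 44.9 CPM in stomach (3.44, SE 0.37, adjusted p = 0.000438). Ifit3 was 628, 724 and 794 CPM in heart and 173, 196 and 184 CPM in stomach (1.96, SE 0.26, adjusted p = 0.00105). Their neighbour Ifit1bl1, whose promoter is shown above, was 23.3, 25.2 and 31.7 CPM in heart and 328, 422 and 289 CPM in stomach (-3.70, SE 0.28, adjusted p = 0.000149). Ifit1 overlapped between the organs, with 222 to 329 CPM in heart and 323 to 767 CPM in stomach (-0.81, adjusted p = 0.127). Per kilobase of exon (RPKM), Ifit3 had the highest mean of the 6 genes in heart (409.8 RPKM, against 108 for Ifit1 and 11.8 for Ifit1bl1), and in stomach Ifit1 (189 RPKM) and Ifit1bl1 (153 RPKM) had higher means than Ifit3 (106 RPKM). Ifit3 and Ifit3b are close copies whose reads may be split or lost when only unique matches are counted.

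On the stomach side, Ifi27l2b, a small interferon-inducible membrane protein, was 502, 459 and 399 CPM in stomach and 4.05, 19.0 and 5.23 CPM in heart (-5.60, SE 0.67, adjusted p = 0.000674). Its level in heart replicate 2 was 4.18% of the stomach mean, beside 3.57% for the gastric markers, and 0.894% and 1.15% in the other hearts. Without heart replicate 2 its log2 fold change was -6.59. Oas1g, whose promoter is shown above, was 148 to 191 CPM in stomach and 43.1 to 65.0 CPM in heart (-1.68, adjusted p = 0.00138). Oasl1, an OAS-like protein that restrains Irf7 translation, spread widely in stomach, at 850.1, 371 and 179 CPM, against 111 to 128 CPM in heart (-1.94, SE 0.53, adjusted p = 0.0204), and its adjusted p was 0.0684, 0.0719 and 0.0673 without heart replicates 1, 2 and 3. Mx1, an interferon-inducible GTPase gene, was 199 to 592 CPM in stomach and 90.6 to 140.4 CPM in heart (-1.74, adjusted p = 0.0122), and is named after its values were seen. The number of effectors higher in stomach was 5, 4 and 5 without heart replicates 1, 2 and 3. Ch25h, which makes 25-hydroxycholesterol, was higher in heart, at 9.96 to 27.3 CPM against 2.08 to 3.83 CPM (2.60, adjusted p = 0.00319). The ISG15 system, a ubiquitin-like tag with its enzymes and its brake, was less clear. Isg15 was 306, 312 and 336 CPM in heart and 163, 276 and 282 CPM in stomach (0.40, SE 0.28, adjusted p = 0.292), and Usp18, which removes the tag, was 207 to 267 CPM and 127 to 203 CPM (0.58, adjusted p = 0.112). Neither passed, although their samples did not overlap. Of the 7 genes of this list, 3 were higher in heart. They were Socs1, a feedback inhibitor of cytokine signalling (2.26, adjusted p = 0.0209), Herc6, the ligase (1.08, adjusted p = 0.0228), and Uba7, the activating enzyme (0.79, adjusted p = 0.0454). None of the 3 passed without heart replicate 3 (adjusted p = 0.0708, 0.0817 and 0.145), and Uba7 did not pass without any 1 of the other samples except stomach replicate 3, with an adjusted p of 0.0688 to 0.118.

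**Figure D3:**
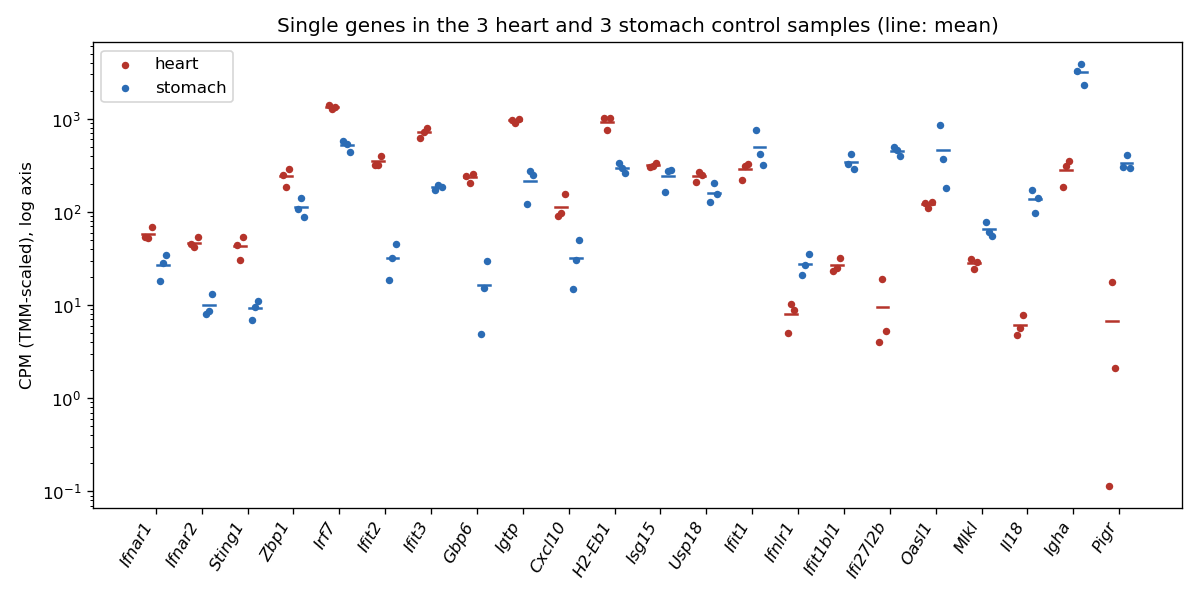
Points give the CPM (log axis) of single genes in the 3 heart and 3 stomach control samples, with the mean as a line. Ifnar2, Sting1, Ifit2, Ifit3 and Gbp6 are higher in every heart than in any stomach, Ifnlr1, Ifit1bl1 and Ifi27l2b the reverse, and Ifit1 overlaps. Pigr in heart runs from 0.113 to 17.8 CPM.

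The interferon-inducible GTPases, which attack the vacuoles of intracellular microbes, were listed as guanylate-binding proteins, immunity-related GTPases and Gvin1. Mx1 and Mx2, also GTPase genes, were counted with the antiviral effectors and not here. The GTPase list had the highest share on the heart side among the interferon lists with more than 1 tested gene. Of 19 tested, 17 (89.5%) were higher in heart and none in stomach, with a median of 2.35, and 13 of 19 exceeded a 2-fold difference in glmTreat. Their summed level was 5334, 5027 and 5877 CPM in heart and 774, 1359 and 1442 CPM in stomach. Gbp10 was 152, 95.5 and 119 CPM in heart and 0, 1.43 and 2.20 CPM in stomach (6.59, SE 0.86, adjusted p = 0.000949). Gbp6, its near copy, was 246, 206 and 254 CPM in heart and 4.93, 15.1 and 29.8 CPM in stomach (3.82, SE 0.60, adjusted p = 0.00199). Igtp was 975, 908 and 1002 CPM in heart and 121, 272 and 252 CPM in stomach (2.16, SE 0.38, adjusted p = 0.00306). No sample of heart overlapped with stomach for these genes, and the range within stomach was wide for Gbp6. The 2 that did not pass were Gbp8 (0.64) and Ifi47 (0.58). Gvin1, a very large GTPase, was low, at 6.71 to 13.8 CPM in heart and at most 1.43 CPM in stomach (3.53, adjusted p = 0.0165), and its adjusted p was 0.0575 without stomach replicate 2 and 0.0627 without heart replicate 3. Gm12185, of M7core, was 188 to 299 CPM in heart and 2.93 to 6.19 CPM in stomach (5.75, SE 0.39, adjusted p = 0.000114) and overlaps the GTPase gene Tgtp1 on the same strand. Gbp6 and Gbp10 both overlap Gm43302 and resemble each other, so reads may have been moved or lost between them.

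Beside these genes, markers of immune, vascular and blood cells were also higher in heart. Of 11 macrophage markers, 8 were higher in heart and none in stomach, with summed levels of 388 to 564 CPM in heart and 110 to 166 CPM in stomach. Adgre1, the macrophage surface protein F4/80, was 117, 84.9 and 107 CPM in heart and 12.6, 5.83 and 17.0 CPM in stomach (3.12, adjusted p = 0.000846). Fcgr1, the high-affinity IgG receptor (2.11, adjusted p = 0.001), and Mertk, a receptor for clearing dead cells (1.90, adjusted p = 0.00281), followed. All 10 tested T cell markers of 11 were higher in heart, with summed levels of 176 to 330.1 CPM against 73.6 to 91.7 CPM. Cd8b1, a chain of the CD8 co-receptor, was 11.8 to 24.5 CPM in heart and 3.33 to 7.47 CPM in stomach (1.99, adjusted p = 0.0081), and Lck, the T cell receptor kinase, was 24.7 to 49.1 CPM and 8.62 to 14.9 CPM (1.83, adjusted p = 0.00416). Cd247, the zeta chain of the T cell receptor complex, was 8.08 to 12.9 CPM and 2.00 to 3.10 CPM (2.21, adjusted p = 0.00267). Of 8 NK and cytotoxic markers, 6 were higher in heart, with summed levels of 77.0 to 140.3 CPM against 19.4 to 24.8 CPM. Gzmb, the killing protease granzyme B, was 44.3, 25 and 44.7 CPM in heart and 4.24, 8.21 and 5.68 CPM in stomach (2.65, adjusted p = 0.00101), and Prf1, perforin, was 5.34 to 12.4 CPM and 0.616 to 1.23 CPM (3.36). Nkg7, of cytotoxic granules, was 30.8 to 49.7 CPM and 5.47 to 9.47 CPM (2.43, adjusted p = 0.000847). All 7 endothelial markers were higher in heart, with 996 to 1207 CPM against 63.3 to 103 CPM. Red cell markers moved with them, with 4 of 5 erythroid genes higher in heart, a median of 2.85 and summed levels of 514 to 1443 CPM against 44.0 to 279 CPM. None of the macrophage, T cell, NK or endothelial markers was at 0 in all samples of either organ. The part of these cells, and of blood, in the interferon genes above was not tested.

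Of 5 tested dendritic cell genes, 2 were higher in heart and 0 in stomach. Of 5 monocyte genes, 3 were higher in heart and 1 in stomach. Zbtb46 and Clec9a, of conventional dendritic cells, were higher in heart (2.17 and 1.79), but the adjusted p of Clec9a, 0.0342, was 0.0524 to 0.103 without any 1 heart sample and 0.0795 without stomach replicate 2. Ly6c2, of classical monocytes, was 85.1 to 177 CPM in heart and 44.0 to 62.6 CPM in stomach (1.44, adjusted p = 0.00807). Plac8, which monocytes share with other cells including epithelium, was 453 to 965 CPM in stomach and 97.6 to 138 CPM in heart (-2.62, adjusted p = 0.00127). Csf3r, the receptor for granulocyte colony-stimulating factor, was 17.7 to 25.7 CPM in heart and 1.69 to 3.07 CPM in stomach (3.11), while 5 of 8 neutrophil genes were too low to test.

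Chemokines, which draw leukocytes into tissue, went both ways. Of 27 tested, 17 (63%) were higher in heart and 3 in stomach, with a median of 1.75. Cxcl10, whose promoter is shown above, was 89.6, 97.6 and 155 CPM in heart and 14.9, 30.7 and 49.9 CPM in stomach (1.84, SE 0.44, adjusted p = 0.0124), and it overlaps Art3 on the other strand. Its receptor Cxcr3, on activated T cells, was 14.6 to 20.6 CPM in heart and 0.767 to 4.52 CPM in stomach (2.66, adjusted p = 0.00817). The ligands for monocytes and T cells Ccl4 (4.76), Ccl3 (4) and Ccl7 (3.55) were between 7.14 and 57.9 CPM in heart and at most 5.37 CPM in stomach. Ccr2, the receptor of Ccl7, was 42.5, 23.3 and 44.0 CPM in heart and 4.24, 6.43 and 7.31 CPM in stomach (2.60, adjusted p = 0.000983), and Ackr3, a scavenger of Cxcl12, was 58.6 to 73.2 CPM and 5.00 to 16.6 CPM (2.79). Of 15 receptors, 8 were higher in heart and none in stomach. The stomach genes were Cxcl17, a mucosal chemokine, Ccl28, which draws IgA-secreting cells, and Ccl11, which draws eosinophils. Cxcl17 was 153, 179 and 73.4 CPM in stomach and 0.0563, 5.84 and 0.218 CPM in heart (-6.11, adjusted p = 0.00741), with 4.32% of the stomach mean in heart replicate 2 and a log2 fold change of -9.85 without it. Ccl28 was 6.70 to 15.8 CPM in stomach and 0.394 to 1.51 CPM in heart (-3.67), and Ccl11 was 8.87 to 18.4 CPM and 0.721 to 3.27 CPM (-2.59).

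Antigen presentation genes were higher in heart or did not pass, with 1 exception. The classical class I genes were close in both organs, with H2-K1 at 4683 to 5156 CPM in heart and 3889.8 to 5671 CPM in stomach (-0.06, adjusted p = 0.926), and B2m, their light chain, at 3271 to 3661 CPM and 4009 to 4415 CPM (-0.27, adjusted p = 0.595). Of 21 genes of the class I list, 10 (47.6%) were higher in heart and none in stomach, and the number was 5 without heart replicate 1 and 5 without heart replicate 3. They included the non-classical H2-T24 (2.86, adjusted p = 0.00542), H2-T22 (1.74, adjusted p = 0.00158) and H2-M3 (1.46, adjusted p = 0.00133), whose reads may be shared with related genes of the cluster. H2-T22 was 722 to 813 CPM in heart and 221 to 247 CPM in stomach. Of 13 class II genes, 6 (46.2%) were higher in heart and 1 in stomach, and the number higher in heart was 3 without heart replicate 1 and 2 without heart replicate 3. H2-Eb1 was 1024, 750.0 and 1008 CPM in heart and 333, 294 and 265 CPM in stomach (1.64, SE 0.29, adjusted p = 0.00333), and Ctss, the protease that trims the invariant chain, was 357 to 616 CPM and 133 to 151 CPM (1.82). Ciita, the switch of class II genes, was 31.6, 28.9 and 61.6 CPM in heart and 5.08, 16 and 15.2 CPM in stomach (1.75, adjusted p = 0.0214). Without heart replicate 3, the sample with the highest B cell marker sum, its adjusted p was 0.0786. The part of B cells in the Ciita level was not tested. Ifi30, a lysosomal thiol reductase of the same pathway, was 130.0 to 663 CPM in stomach and 59.1 to 111 CPM in heart (-2.12, adjusted p = 0.0191), with an adjusted p of 0.0533 without stomach replicate 2, 0.0626 without heart replicate 1 and 0.0716 without heart replicate 2.

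Complement was mostly a heart group, with 16 of 24 genes (66.7%) higher in heart and 1 in stomach and a median of 2.09. Masp1, a protease of the lectin pathway, was 27.2 to 33.6 CPM in heart and 0.179 to 0.818 CPM in stomach (5.91, adjusted p = 0.00018), and C7, of the membrane attack complex, was 7.26 to 12.7 CPM and 0 to 0.716 CPM (4.90). Cfi, factor I, which cleaves C3b, was the 1 member higher in stomach, at 102, 203 and 116 CPM against 2.53, 11.6 and 0.871 CPM in heart (-4.83, adjusted p = 0.00393). In heart replicate 2 Cfi was 8.28% of the stomach mean, and its log2 fold change without that sample was -6.34.

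Among cytokines and their targets, 13 of 28 (46.4%) were higher in heart and 4 (14.3%) in stomach. The adhesion molecules that leukocytes use on endothelium were higher in heart, with Icam1 at 90.9, 61.0 and 81.8 CPM against 2.00, 7.38 and 11.0 CPM (3.50, adjusted p = 0.002) and Vcam1 at 109 to 173 CPM against 22.4 to 35.5 CPM (2.27). Nos2, the inducible nitric oxide synthase of activated macrophages, was 10.5 to 16.9 CPM in heart and 0.307 to 0.539 CPM in stomach (4.87, adjusted p = 0.000232). The interleukin-1 family cytokines of epithelial and stromal cells went to the stomach. Il18 was 171, 96.6 and 142 CPM in stomach and 4.73, 5.70 and 7.79 CPM in heart (-4.49, SE 0.33, adjusted p = 0.000137), and Il33 was 79.1, 144 and 117 CPM and 10.5, 15 and 15.8 CPM (-3.04, adjusted p = 0.000332). Ido1, the tryptophan-degrading enzyme that interferon gamma induces in many cells, was 6.93 to 25.7 CPM in stomach and 2.16 to 2.83 CPM in heart (-2.66, adjusted p = 0.00459).

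Cell death genes went both ways, with 6 of 14 (42.9%) higher in stomach and 3 (21.4%) higher in heart, against 20.5% and 21% of all genes, and a median of -0.09. Mlkl, the pore-forming executor of necroptosis, was 78.1, 60.8 and 55.5 CPM in stomach and 31.4, 24.4 and 28.9 CPM in heart (-1.20, SE 0.22, adjusted p = 0.00363), the opposite side from its upstream sensor Zbp1. The inflammasome sensor Nlrc4 was 30.7, 47.6 and 50 CPM in stomach and 3.83, 4.90 and 5.34 CPM in heart (-3.19, adjusted p = 0.000241). Pycard, the inflammasome adaptor, was 52.8 to 131 CPM in stomach and 21.1 to 25.8 CPM in heart (-1.85), and Gsdmd, the pore of pyroptosis, was 148 to 149.5 CPM and 55.8 to 68.5 CPM (-1.24, adjusted p = 0.002). On the heart side were Casp4, the sensor of the non-canonical pathway (1.59, adjusted p = 0.00404), the death receptor Fas (1.36, adjusted p = 0.00344) and the inflammasome sensor Nlrp3, at 2.81 to 5.72 CPM in heart and 0.231 to 0.536 CPM in stomach (3.26, adjusted p = 0.00289). Casp1, the inflammasome protease, did not pass (0.50, adjusted p = 0.288).

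IgA and most mucosal defence genes were higher in stomach. Igha, the heavy chain of IgA, was 3227, 3923 and 2289 CPM in stomach and 183, 308 and 354 CPM in heart (-3.48, SE 0.44, adjusted p = 0.000863). Igkc, the kappa light chain (-2.91, adjusted p = 0.00362), and Jchain, which joins IgA into dimers (-2.70, adjusted p = 0.00219), were on the same side, as were 5 of 13 plasma cell genes in all. The IgG and IgM constant genes did not pass, from Ighg3 (-0.34) to Ighg2c (0.84), and none of 8 B cell genes passed in either direction, with 33.0, 60.3 and 457 CPM in the hearts and 118 to 248 CPM in the stomachs. The highest value was that of heart replicate 3. Pigr, the receptor that carries IgA dimers through epithelium, was 306, 407 and 293 CPM in stomach and 0.113, 17.8 and 2.12 CPM in heart (-5.66, SE 1.34, adjusted p = 0.0116), with 5.31% of the stomach mean in heart replicate 2, and its log2 fold change without that sample was -8.20. Of 17 mucosal defence genes, 13 (76.5%) were higher in stomach, and 13 were without heart replicate 2. They included the trefoil peptides Tff1 (-7.99, adjusted p = 0.000355) and Tff2 (-7.27, adjusted p = 0.00612) and the surface mucin Muc5ac (-6.77, adjusted p = 0.0085). Heart replicate 2 held 1.58% and 2.42% of the stomach mean of Tff2 and Muc5ac, and their log2 fold changes without it were -9.10 and -9.24. The 2 genes on the heart side were of myeloid cells, Lyz2, lysozyme (1.62, adjusted p = 0.00985), and Lcn2, a siderophore-binding protein (3.96, adjusted p = 0.00344).

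Mast cell genes were mostly higher in stomach, with 7 of 8 tested genes higher there and summed levels of 93.3 to 115 CPM against 10.7 to 13.3 CPM. Mcpt1, a mucosal mast cell protease, was 29.4, 36.3 and 18.8 CPM in stomach and had 1 count in the 3 hearts together, a ratio of 1376 with a 95% interval of 247 to 54383 from counting error (exact binomial). Mcpt2 was 19.2 to 29.3 CPM in stomach and 0, 1.08 and 0.0545 CPM in heart (-6.18, adjusted p = 0.00238), with -9.50 without heart replicate 2, and Cpa3, the mast cell carboxypeptidase, was 8.32 to 10.6 CPM and 0.0721 to 0.281 CPM (-5.62). The tuft cell genes, of the chemosensory cells of the epithelium, were all 5 higher in stomach, with Avil at 193 to 293 CPM against 2.65 to 14.3 CPM (-5.07, adjusted p = 0.000807), Trpm5 (-3.41, adjusted p = 0.00448) and Pou2f3 (-3.32, adjusted p = 0.00266). Without heart replicate 2, which held 5.74% of the stomach mean of Avil and 18.6% of that of Trpm5, these 2 were -5.94 and -4.30.

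**Figure D4:**
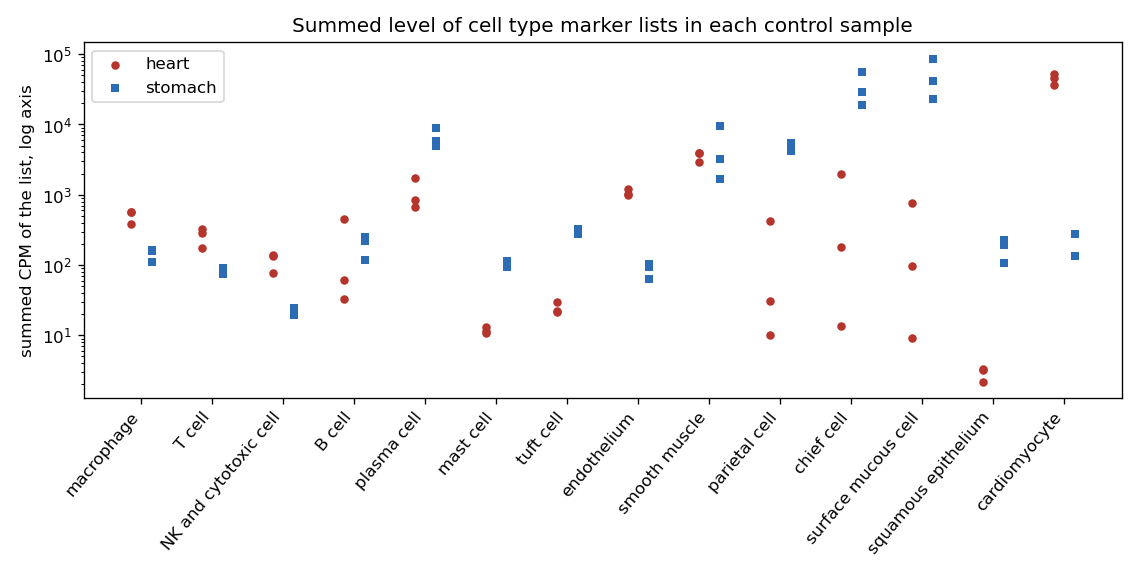
Each point is the summed CPM (log axis) of a cell type marker list in 1 control sample, circles for heart and squares for stomach. Macrophage, T cell, NK and endothelial sums are higher in every heart than in any stomach, plasma, mast and tuft cell sums are higher in every stomach, and the B cell sum overlaps, with its highest value, 457 CPM, in heart replicate 3. The chief cell sum in heart runs from 13.8 to 1971 CPM, the highest in replicate 2.

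M7core held genes higher in heart and genes higher in stomach. Besides Gm12185 and Gbp6, Clic5, an intracellular chloride channel protein, was 241 to 332 CPM in heart and 9.11 to 10.6 CPM in stomach (4.79, SE 0.26, adjusted p = 0.000104). On the other side stood Apol7a, an apolipoprotein L gene, at 50.3 to 69.9 CPM in stomach and 0.980 to 3.75 CPM in heart (-4.81, adjusted p = 0.000402), Capn5, a calpain (-3.25, adjusted p = 0.000351), and Lgals9, galectin-9, at 636 to 1534 CPM in stomach and 200.2 to 216 CPM in heart (-2.49, adjusted p = 0.00206). Of the 41 members that also belong to published interferon modules, 17 (41.5%) were higher in heart and 2 in stomach, with a median of 0.56. Of the 116 tested outside these modules, 38 (32.8%) were higher in heart and 17 (14.7%) in stomach, with a median of 0.32. Without heart replicate 1 the number of M7core genes higher in stomach was 12.

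The same comparison was made in the 6 samples from mice given SN-011, which share no sample with the controls. There, 17308 genes were tested, 26.6% were higher in heart and 29.7% in stomach (4607 and 5137 genes, or 3277 and 6571 when scaled by library size alone). Of the 49 interferon genes higher in heart in the controls, 45 (91.8%) were so again, and of the 11 higher in stomach, 5 (45.5%) were so again. Over all genes these shares were 75.6% and 76.6%, and no interferon gene was called on the opposite side. All 19 GTPases were higher in heart after SN-011, with a median of 2.83, Gbp10 at 7.72 and Gbp6 at 4.62. Of the 4 genes of RIG-I-like receptors and Mavs, none of them higher in control heart, 3 were higher in heart after SN-011 (median 0.72). The class I list had 20 of 21 genes higher in heart, among them H2-K1 (0.99, adjusted p = 0.0174) and B2m (1.07, adjusted p = 0.00609), which had not passed in the controls, and Isg15 (1.04, adjusted p = 0.0488) and Usp18 (1.70, adjusted p = 0.00159) passed as well. Several monocyte chemokines that were higher in control heart did not pass after SN-011, such as Ccl7 (0.61, adjusted p = 0.411) and Ccl3 (0.99, adjusted p = 0.0981), and 7 of 17 chemokines were called again. On the stomach side, Ifi27l2b (-5.97), Ifnlr1 (-1.45) and Oas1g (-1.19, adjusted p = 0.0199) passed again, and Ifit1bl1 (-1.19, adjusted p = 0.0969), Oasl1 (-0.85, adjusted p = 0.103) and Mlkl (-0.37, adjusted p = 0.331) did not. Whether these differences changed between the 2 sets of mice was not tested.

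**Figure D5:**
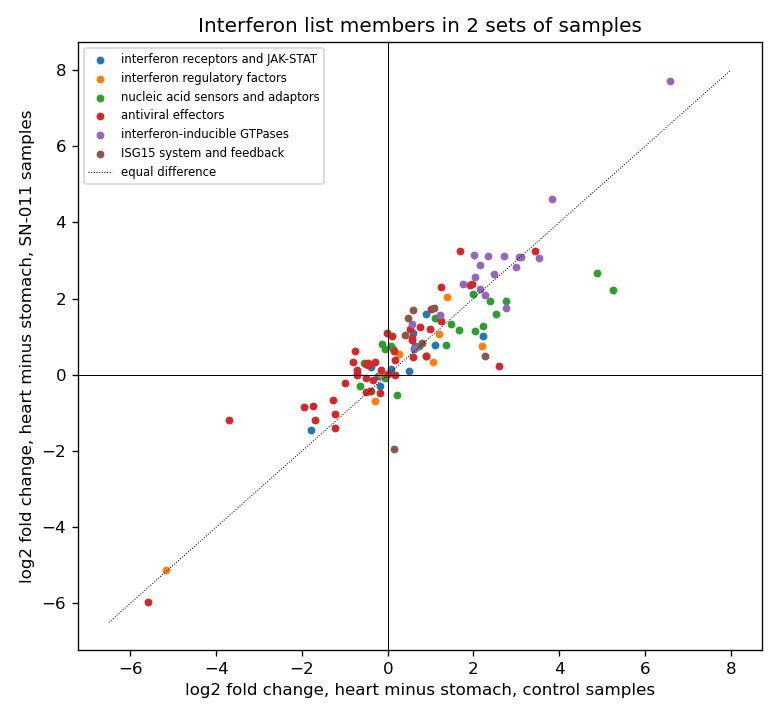
Each point is 1 interferon list gene tested in both sets, with its log2 fold change of heart minus stomach in the control samples (x axis) and in the SN-011 samples (y axis), and the dotted line marks equal differences. The GTPases lie at the upper right in both sets (medians 2.35 and 2.83), and Ifi27l2b lies at the lower left.

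The control samples of tongue and skeletal muscle placed these levels among 4 tissues of the same genotype. All 19 GTPases had their highest mean in heart, and 16 had their lowest mean in stomach. Gbp6 was 205 ± 27.0 CPM in heart, 68.1 ± 21.9 in tongue, 62.6 ± 3.86 in muscle and 14 ± 10.4 in stomach (SD, n = 3 each, scaled over the 12 controls). Tongue and muscle did not differ beyond their spread. Of M7core, Clic5 was 242 ± 39.8 CPM in heart and 235 ± 32.0 in muscle, and Gm12185 was 206 ± 54.6 and 160 ± 50.5. Neither gene differed between heart and muscle beyond its spread. Cxcl10 was not highest in heart, with 223 ± 157 CPM in tongue, 99.7 ± 33.8 in heart, 28.8 ± 6.37 in muscle and 26.9 ± 14.3 in stomach, and here neither tongue and heart nor muscle and stomach differed beyond their spread. Ifi27l2b and Ifit1bl1 were stomach genes among all 4, at 388 ± 54.0 and 295 ± 57.9 CPM there and at most 12.2 ± 9.35 and 28.5 ± 19.1 CPM in the others. The gastric gene Tff2 was also seen in tongue (3.13 to 110 CPM) and muscle (6.35 to 36.2 CPM). Whether stomach transcripts add to the low Ifi27l2b and Ifit1bl1 values there was not tested. Antiviral effectors had their highest mean in stomach for 20 genes and in heart for 19 of 46, and their lowest mean in muscle for 42.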

How the data were processed

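RNA-Seq of heart and stomach of Trex1-/- mice was processed, with 3 samples per group. The authors deposited raw read counts per gene, without normalization, for 54532 genes per sample. The labels name HISAT2, HTSeq, mm10 and a HiSeq 2500. The paper's methods name Trimmomatic, hisat2, featureCounts on unique pairs, another sequencer and a poly(A) library kit described as strand-specific, and whether counting used strand is not given in the sources used here. Symbols and positions came from GENCODE M21 (GRCm38), which held 54495 of the identifiers, and promoters from RefSeq (GRCm38.p6).

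Low genes were removed by filterByExpr at its minimum count of 10 and minimum total of 15. The quasi-likelihood test of heart minus stomach was run in edgeR 4.0.16 under R 4.3.3, on TMM-scaled libraries and with the prior count at 0.125, followed by Benjamini-Hochberg adjustment and a threshold of 0.05. The SN-011 samples were fitted alone in the same way. CPM are scaled by TMM, and RPKM divide CPM by the exon length. The fit was tested on simulated data. Tables and figures used Python 3.11.15, pandas 2.3.3, numpy 2.4.6, scipy 1.17.1 and matplotlib 3.10.9. Total counts were 14392199 to 17337989 per sample. No 2 replicates agreed within sampling noise (chi-square per degree of freedom 36.0 to 235).

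The gene lists, their members and the tests were chosen with earlier results of these data known. Named were 16 fixed genes and, in each interferon, immune, M7core and immune cell list and among all genes, up to 3 genes per direction with the largest difference, taken from genes that passed the test, whose organs did not overlap and whose higher mean reached 5 CPM. Genes named outside this rule, whose values were seen first, are Ifit1, Ifng, Igtp, Oas1g, Mx1, Nlrp3, Casp1, Ifih1, Ddx58, H2-K1, B2m, Stat2, Irf9, Gbp8, Ifi47, Ighg3, Ighg2c and the control marker Lipf. Some genes that the rule selects are not reported here. Igtp, Oas1g, Ifit3, Ifit1bl1 and Cxcl10 were picked for their promoters. Alternatives were DESeq2 1.42.0 (size factors and test), library size alone, upper-quartile factors, removal of mitochondrial and top 10 genes, no filter, 10 counts in every sample, edgeR's exact test, glmTreat, a joint fit of 24 samples, a prior count of 2, a replicate block and each sample left out.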

Additional observations from a re-analysis of the deposited data

How the results depend on the processing

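Counts over all genes, M7core, the interferon lists together and the immune lists together stayed within 1.5 times of the reported ones under the other normalizations, filters, tests and the joint fit, except for immune genes under 1 filter and under glmTreat against 2-fold, which by its construction calls fewer. glmTreat called 1908 and 1817 of all genes, 25 and 6 of M7core, 28 and 5 of the interferon lists, and 45 immune genes higher in heart. With 10 counts in every sample, which removes genes that are low in 1 organ, 16 immune genes were higher in stomach and no interferon ligand was left to test. Single lists moved more. With 10 counts in every sample, chemokines higher in heart went from 17 to 11, chemokines higher in stomach from 3 to 1, mucosal defence genes higher in stomach from 13 to 4 and endosomal receptors higher in heart from 4 to 2, and OAS genes higher in stomach went from 2 to 4 there and under the DESeq2 test. Library size alone took the ISG15 system from 3 to 1 and PYHIN genes from 5 to 3 in heart, the joint fit took the receptor list from 3 to 5, and complement genes higher in stomach went from 1 to 2 under the DESeq2 and exact tests. The call of Dhx58, the 1 sensor higher in stomach, was lost under library size alone and without the filter. Leaving out 1 sample gave 2645 to 4053 and 2473 to 4068 of all genes, 38 to 58 and 12 to 26 of M7core, 33 to 52 and 6 to 15 of the interferon lists, and 57 to 77 and 24 to 28 of the immune lists. The interferon genes higher in stomach, 11 in the report, were 7, 6 and 7 without heart replicates 1, 2 and 3, and the cause was not tested. In the SN-011 samples, library size alone gave 3277 and 6571 genes in place of 4607 and 5137. Leaving out 1 stomach sample moved some genes by over 1.5 times, as for Tlr8 (9.57), Ccl4 (6.37) and Socs1 (3.29) without replicate 2, C7 (6.53) and Gbp6 (4.57) without replicate 3, and Oasl1 (-1.21) without replicate 1. No named gene changed direction, and of 1198 refits of 102 named genes under other settings 33 lost the call, 20 of them under glmTreat. The labels number heart and stomach alike. Same-numbered samples correlated at 0.099, 0.14 and 0.324 as deviations from group means over 10536 genes. Heart replicate 2 correlated as well with stomach replicate 1 (0.14), and the other pairs of unlike number ran from -0.326 to 0.048. Replicate 1 was also the sample with high Xist in both organs. Whether same-numbered samples shared a mouse was not settled, and the numbers were not taken as pairs. With the replicate block, 3473 and 3127 of all genes, 49 and 11 interferon genes and 69 and 28 immune genes were called, and Dhx58 and Uba7 did not pass (adjusted p = 0.0698 and 0.0546). At 3 samples per organ, differences near 2-fold in variable genes are at the limit of what these data show.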
